A study of Mus musculus with 12 samples.

Results

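Myotubes of the mouse C2C12 line after 24 h of differentiation were compared with sparse myoblasts of the same line at 50% confluence, across all genes of an Illumina array. The arrays were chosen by their labels: 3 of 24 h myotubes and 3 of 50% confluent myoblasts, which are 6 of the 12 arrays of the series. C2C12 is an established line of mouse myoblasts, the cells that fuse into multinucleated muscle fibres. For the 24 h myotubes, cells at 100% confluence were moved to DMEM with 2% heat-inactivated horse serum, insulin at 10 µg/ml and transferrin at 10 µg/ml, and kept there for 24 h. The 50% confluent myoblasts grew in DMEM with 10% BCS and received no differentiation medium. The other arrays, 3 of 95% confluent myoblasts in the same growth medium and 3 of myotubes after 48 h, entered the fit and are used to place the differences along the course. All groups are 1 cell line, the replicates are numbered without a statement that they were separate cultures, and the p-values therefore measure the spread between these samples, which may be technical. The comparison spans serum, insulin and transferrin, cell density and time at once, and these cannot be told apart between the 2 groups.

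Skeletal myogenesis in culture is a switch between growth and differentiation. In growth medium, myoblasts carry the transcription factor MyoD but keep dividing, held back by growth factors, cyclin D1 and the Id proteins, which sequester the partners of MyoD. When mitogens are withdrawn, cells switch on myogenin and cyclin-dependent kinase inhibitors, leave the cell cycle for good, build sarcomeres, the contractile units of actin and myosin, and fuse. MyoD and myogenin bind E-boxes, short palindromic DNA elements found in many muscle promoters, whereas E2F factors, which are released from the retinoblastoma protein in dividing cells, bind promoters of replication genes.

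Values are log2 intensities from the deposited normalized table, and each difference is 24 h myotubes minus 50% myoblasts, so that 1 log2 unit is a 2-fold difference. The labelled cell types were checked on 8 skeletal muscle markers (Myod1, Myog, Des, Acta1, Mylpf, Tnnc2, Ckm and Cdh15), all of which were tested. Their summed linear intensity was 74286 to 91872 on the 24 h arrays, against 14236 to 18945 on the 50% arrays. It was lower again on the 95% arrays (8007 to 13588) and highest on the 48 h arrays (127589 to 138211). The ranges of the sparse and the dense myoblasts did not overlap. Such a sum weighs bright genes most. Acta1, Mylpf, Tnnc2, Myod1 and Ckm were lower on every 95% array than on every 50% array, whereas Des, Cdh15 and Myog overlapped. In RNA from whole cultures, fewer differentiated cells and less RNA per cell cannot be told apart. Arrays of the 2 groups correlated with their own group at r = 0.997 to 0.998. The third 95% array stood apart, with r of 0.985 and 0.986 to the other two, and it bears on this comparison through the shared estimate of the spread, the filter on dim probes and the normalization between arrays, not through the group means. The second principal component, holding 18.9% of the variance, placed 24 h arrays at 18.5 to 19.7, against -21.1 to -17.6 for the 50% arrays, while the 95% arrays lay at 4.58 to 19.6 and the 48 h arrays at -13.5 to -11.4. No label gives a batch, and whether processing contributed to that split was not tested.

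Differences were widespread. Of 11883 genes tested with limma, 6621 (55.7%) passed an adjusted p of 0.05, and 7849 (66.1%) had arrays that did not overlap between the groups. Of the called genes, 3070 (25.8%) were higher and 3551 (29.9%) lower in 24 h myotubes. A change of at least 2-fold was called for 837 genes (7.04%), 439 higher (3.69%) and 398 lower (3.35%). The large changes leaned upward: 108 genes rose at least 4-fold and 27 fell that far, and 6 rose at least 16-fold with no fall of that size. The median change of all genes was 0.01. Without the third 95% array, 7168 genes were called. Folds near the floor of the array can be understated, and 14 of the 2-fold risers lay below the array median on all 50% arrays.

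**Figure D1:**
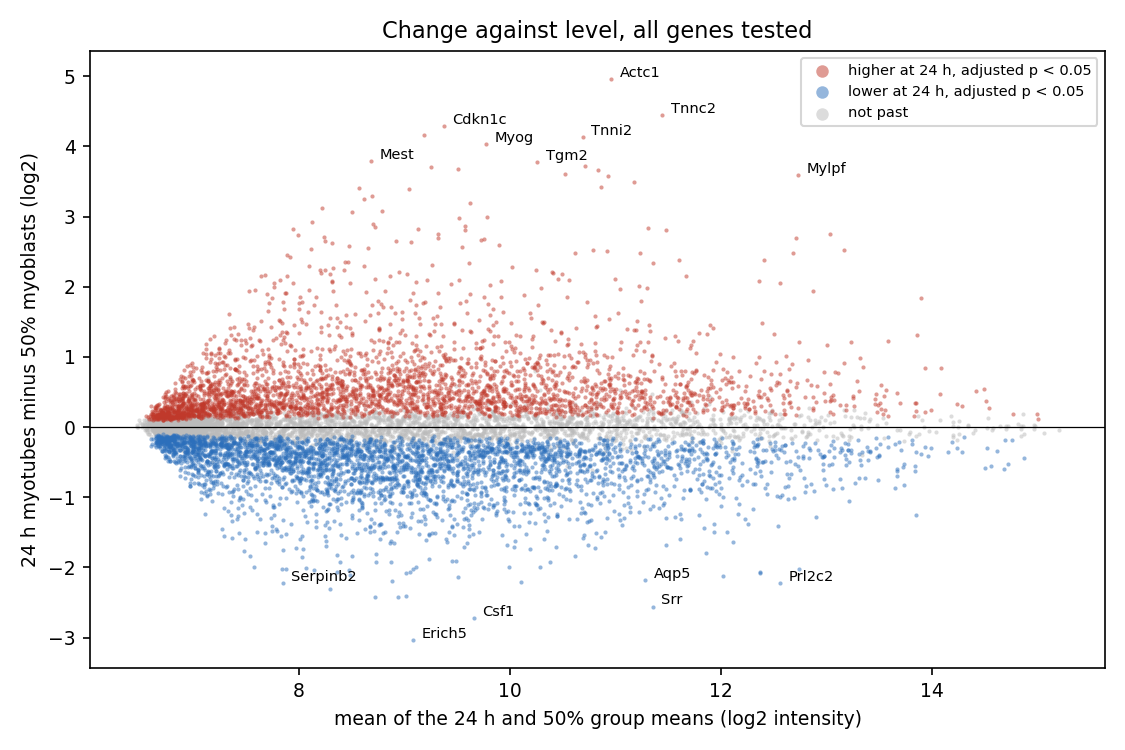
Each point is 1 of the 11883 genes. The horizontal axis is the mean of the 24 h and 50% group means (log2 intensity) and the vertical axis the difference, 24 h myotubes minus 50% myoblasts (log2). Red genes were called higher and blue genes lower at an adjusted p of 0.05, and grey genes did not pass. The largest rises, up to 4.96 for Actc1, reach further from 0 than the largest fall, -3.03 for Erich5.

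Thin filament genes had the highest median of the gene lists. Of the 15 thin filament genes tested, 11 rose, 2 fell and the median change was 2.54. The cardiac actin gene Actc1, which embryonic skeletal muscle also uses, stood at 13.61, 13.32 and 13.41 in 24 h myotubes, against 8.88, 8.31 and 8.26 in 50% myoblasts. Its 31.2-fold rise (log2 4.96 ± 0.23 SE, adjusted p 2e-08 in limma) was the largest of all genes tested, and its second probe rose by 3.74. The fast troponin C gene Tnnc2, the calcium sensor of fast fibres, stood at 13.87, 13.42 and 13.73 in 24 h myotubes, against 9.69, 9.09 and 8.91 in 50% myoblasts. Tnnc2 rose 21.8-fold, and the inhibitory fast troponin gene Tnni2 17.5-fold. The fast troponin T gene Tnnt3 rose 13-fold. On each of these genes the 24 h arrays lay far above every 50% array. The 2 that fell were Tmod4, a pointed-end capping protein (log2 -0.56, or -0.37 over the mean of its probes), and Tpm1, a tropomyosin that non-muscle cells also make (log2 -0.33). The nebulin gene Neb (log2 0.00) and Tpm3 (log2 -0.03) did not pass.

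Skeletal alpha-actin, the main actin of the mature sarcomere, differed between sparse and dense myoblasts. Its gene Acta1 stood at 14.53, 14.14 and 14.57 in 24 h myotubes, against 12.06, 11.50 and 11.42 in 50% myoblasts, a 6.74-fold rise (adjusted p 1.44e-06). In 95% myoblasts it stood at 8.40, 9.13 and 8.11, and it fell by 3.11 log2 units in 95% relative to 50% myoblasts (adjusted p 2.56e-06). The 50% arrays thus lay between the 95% and the 24 h arrays, without overlap.

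Of 12 thick filament genes tested, 8 rose and none fell, with a median of 0.56 that ran between 0.15 without a filter on dim probes and 2.52 over the genes above the array median on all 12 arrays. The fast regulatory light chain gene Mylpf stood at 14.65, 14.26 and 14.68 in 24 h myotubes, against 11.39, 10.72 and 10.69 in 50% myoblasts, a 12.1-fold rise. The essential light chain Myl1 rose by 2.52 and the embryonic light chain Myl4 by 2.81, or 1.39 over the mean of its probes. The perinatal myosin heavy chain Myh8 rose by 1.77, or 0.93 over the mean of its probes. Of the adult heavy chains, the fast-fibre Myh1 rose by 1.17, or 0.65 over the mean of its probes, whereas Myh4 (log2 0.10) and the slow Myh7 (log2 0.13) did not pass.

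Of 17 Z-disc, M-band and titin genes, 16 rose and none fell, with a median of 1.85, or 1.17 over the mean of the probes. Myom2, an M-band protein that links thick filaments, stood at 11.36, 11.02 and 11.26 in 24 h myotubes, against 8.15, 7.95 and 7.98 in 50% myoblasts. It rose 9.1-fold, and its 3 arrays at 24 h lay above all 50% arrays by about 3 log2 units. The Z-disc gene Pdlim3 rose 10.7-fold, and alpha-actinin-3, Actn3, by 2.53. The myosin chaperone Unc45b rose by 3.40, but by 2.06 over the mean of its probes.

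Calcium handling followed. Of 19 genes of excitation-contraction coupling, the step by which a nerve signal releases calcium, 16 rose and none fell, with a median of 1.08 (0.74 over the mean of the probes). In some alternatives 1 fell, among them those without the second 24 h array or without the third 95% array. Atp2a1, the fast calcium pump of the sarcoplasmic reticulum, stood at 12.78, 12.33 and 12.60 in 24 h myotubes, against 9.11, 8.68 and 8.78 in 50% myoblasts, and rose 13.1-fold. Hrc, a calcium-binding protein of the same store, rose 9.5-fold and the calcium buffer Casq2 by 2.57. Casq1, the fast-fibre counterpart of Casq2, did not pass (log2 0.04).

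At the neuromuscular junction, 8 of 10 genes rose and Utrn fell (log2 -0.41, lost over genes above the median on all 12 arrays). The fetal acetylcholine receptor subunit Chrng stood at 13.10, 12.62 and 13.05 in 24 h myotubes, against 9.70, 9.30 and 9.30 in 50% myoblasts. That is an 11.3-fold rise (log2 3.49), with 0.87 on its second probe. The delta subunit Chrnd rose by 2.10, whereas the adult subunit Chrne did not pass (log2 0.02). In the costamere and dystrophin complex, which ties sarcomeres to the membrane, 12 of 15 genes rose and 1 fell. The anchor Ank1 rose by 2.70 and alpha-sarcoglycan, Sgca, by 2.16, and the fall was that of the filamin Flnc (log2 -0.71, or -0.38 over the mean of its probes).

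Promoters of muscle genes were searched for the E-box CAGCTG, which reads the same on both strands, in RefSeq windows of build GRCm38.p6 running from 250 bases before to 50 after each gene's start. It occurred in 27 of 71 promoters (38.0%) of the 6 lists of myogenic factors, filaments, Z-disc, calcium handling and junction genes, and in 16.3% of all 32851 promoters. Of the 83 genes tested in these lists, 57 had a window. The matches are letters in a window and not shown to be bound here. The windows of 4 risers, chosen after their values were seen, show the element in capitals. They are chr7:126463024-126463323 on the minus strand for Atp2a1, chr7:127211358-127211657 on the plus strand for Mylpf, chr1:87205561-87205860 on the plus strand for Chrng, and chr1:135799171-135799470 on the plus strand for Tnni1, the slow troponin I gene, which rose by 2.98.
Atp2a1: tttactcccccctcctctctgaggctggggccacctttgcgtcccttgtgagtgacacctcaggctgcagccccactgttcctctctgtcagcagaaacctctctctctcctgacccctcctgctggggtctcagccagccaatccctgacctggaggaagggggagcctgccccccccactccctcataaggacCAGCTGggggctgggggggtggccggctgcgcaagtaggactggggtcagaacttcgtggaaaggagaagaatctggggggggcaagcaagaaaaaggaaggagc
Mylpf: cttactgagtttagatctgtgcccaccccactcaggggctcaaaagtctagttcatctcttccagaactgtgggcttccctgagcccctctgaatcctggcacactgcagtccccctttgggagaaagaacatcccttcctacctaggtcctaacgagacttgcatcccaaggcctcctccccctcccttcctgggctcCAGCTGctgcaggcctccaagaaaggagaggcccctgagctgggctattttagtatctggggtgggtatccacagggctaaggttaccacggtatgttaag
Chrng: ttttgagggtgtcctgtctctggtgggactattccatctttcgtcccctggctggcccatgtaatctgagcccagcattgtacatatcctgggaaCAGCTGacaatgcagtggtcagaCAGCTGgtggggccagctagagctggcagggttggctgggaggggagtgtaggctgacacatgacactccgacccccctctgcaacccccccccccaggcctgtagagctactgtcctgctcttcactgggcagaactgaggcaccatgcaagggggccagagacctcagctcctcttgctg
Tnni1: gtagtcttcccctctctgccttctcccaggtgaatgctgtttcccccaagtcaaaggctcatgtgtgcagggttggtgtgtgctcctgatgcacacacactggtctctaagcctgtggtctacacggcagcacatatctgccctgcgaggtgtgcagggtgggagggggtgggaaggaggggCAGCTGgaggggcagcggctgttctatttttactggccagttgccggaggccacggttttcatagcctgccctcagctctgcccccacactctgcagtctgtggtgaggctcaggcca
The element begins 55 bases before the start in Atp2a1, 51 in Mylpf and 68 in Tnni1. Chrng holds it at 155 and again at 132 bases before its start. Tnni1 had 2 windows, of which the one with the most matches is shown.

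Among the genes listed as myogenic transcription factors, 8 of 10 rose and none fell, with a median of 0.69. The risers include Msc, which represses myogenesis (log2 0.83). Myogenin, which drives terminal differentiation, stood at 11.87, 11.68 and 11.83 in 24 h myotubes, against 7.92, 7.67 and 7.71 in 50% myoblasts. Myog rose 16.3-fold (log2 4.03 ± 0.20 SE, adjusted p 2.43e-08), with 1.91 on its second probe. Hes6, a factor that promotes myogenesis by countering Hes1, rose by 2.11 and Mef2c, a partner of the MyoD family, by 1.27, or 0.57 over the mean of its probes.

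Myod1 itself did not pass. It stood at 9.84, 9.64 and 9.87 in 24 h myotubes, against 9.91, 9.93 and 9.85 in 50% myoblasts (log2 -0.11 ± 0.07 SE, adjusted p 0.23), and the groups overlapped. Its 95% arrays were lower, at 9.16, 9.30 and 9.10, and Myod1 fell by 0.71 in 95% relative to 50% myoblasts (adjusted p 2.46e-05) and rose by 0.60 at 24 h relative to 95% (adjusted p 6.37e-05). Myf5 and Pax7, which mark earlier progenitors, lay below the level filter, with group means of 6.50 to 6.57 in the 2 groups.

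**Figure D2:**
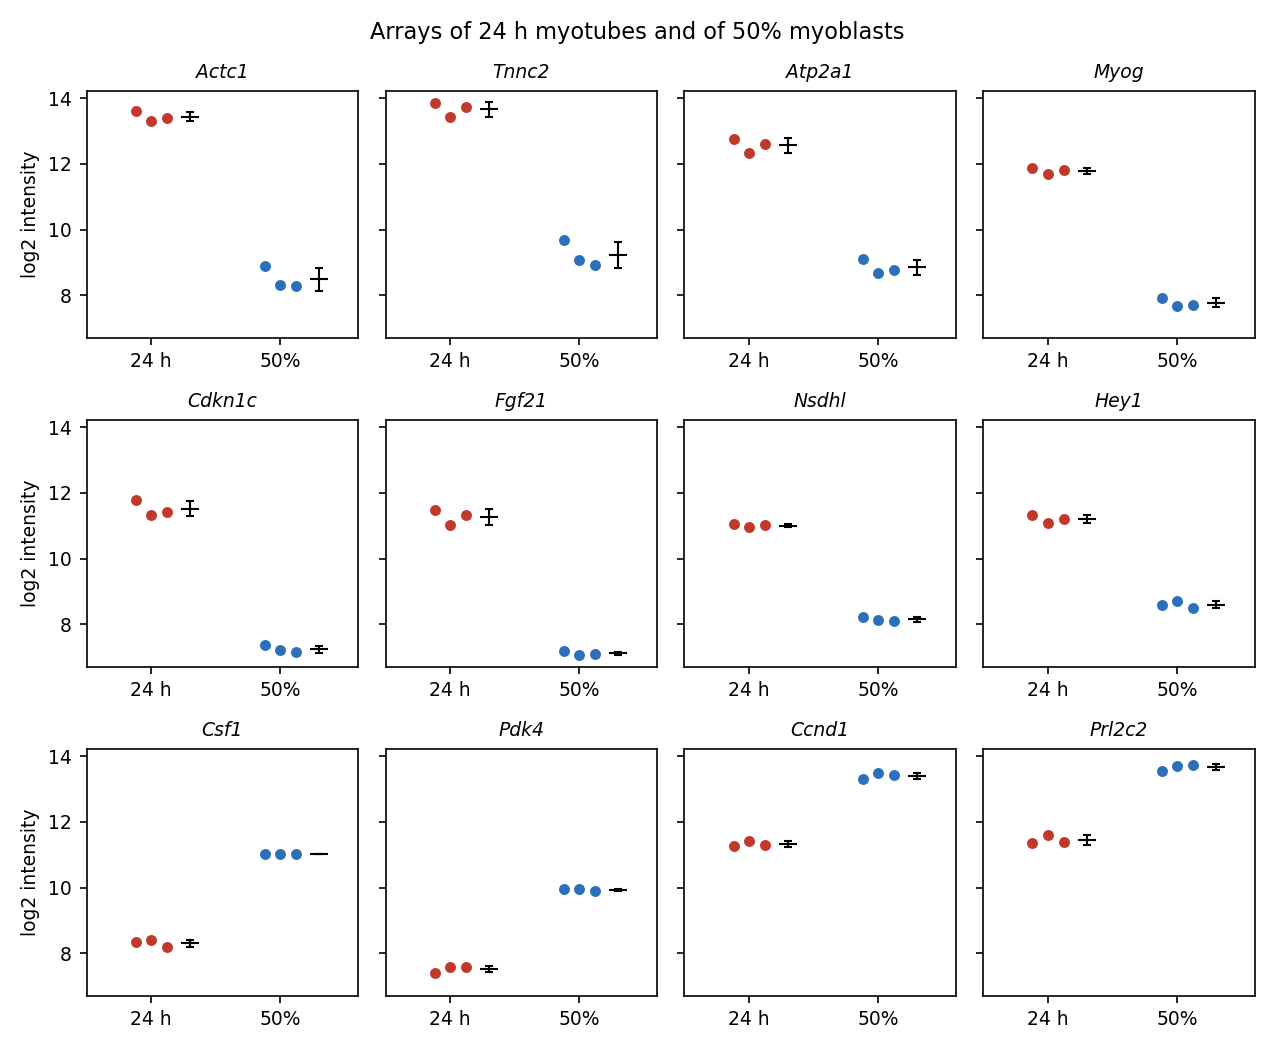
Each panel plots 1 gene, with the 24 h myotube arrays on the left and the 50% myoblast arrays on the right (log2 intensity, 1 point per array). Black bars give the mean and SD of 3 arrays. The arrays do not overlap in any of the 12 panels, with 24 h arrays higher in Actc1, Tnnc2, Atp2a1, Myog, Cdkn1c, Fgf21, Nsdhl and Hey1 and lower in Csf1, Pdk4, Ccnd1 and Prl2c2.

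Of 17 genes of fusion and adhesion, 7 rose and 3 fell, beside 25.8% of all genes called higher and 29.9% lower. The median was 0.10, or 0.25 over probes above a level of 7.5. Mymk, the muscle-specific membrane protein myomaker that cells need in order to fuse, stood at 11.03, 10.44 and 10.76 in 24 h myotubes, against 7.58, 7.29 and 7.18 in 50% myoblasts. It rose 10.5-fold, and its second probe by 3.24. M-cadherin, Cdh15, rose by 1.49, whereas Adam12, a metalloprotease of fusing myoblasts, fell by 0.55 and the netrin receptor Neo1 fell by 0.48.

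The muscle fuel genes rose in 13 of 18 cases with 1 fall. Muscle creatine kinase, Ckm, which buffers ATP, stood at 10.07, 9.54 and 9.74 in 24 h myotubes, against 6.72, 6.61 and 6.67 in 50% myoblasts. Ckm rose 8.67-fold on this scale, and its 50% arrays lay close to the array median of 6.684. The muscle cytochrome oxidase subunit Cox6a2 rose by 2.85, muscle phosphoglycerate mutase Pgam2 by 2.62 and brain creatine kinase Ckb by 2.38. The fall was Pdk4, a kinase that blocks the entry of pyruvate into mitochondria and is repressed by insulin. Pdk4 stood at 7.41, 7.56 and 7.58 in 24 h myotubes, against 9.95, 9.96 and 9.90 in 50% myoblasts, 5.35-fold lower. It was still at 9.53, 9.37 and 9.78 in the 95% myoblasts and averaged 7.54 at 48 h. Of 28 genes of mitochondrial respiration 15 rose and 2 fell, with a median of only 0.21.

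Ubiquitin-ligase and turnover genes of muscle also rose, in 14 of 16 cases with a fall of Ulk1 (log2 -0.48). Klhl41, a Kelch protein that stabilises sarcomere components, stood at 11.52, 11.20 and 11.33 in 24 h myotubes, against 7.91, 7.54 and 7.57 in 50% myoblasts, 12.8-fold higher. Asb2, a ligase adaptor that targets filamins, rose by 2.93, the related Klhl40 by 2.15 and Trim54 by 2.24.

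Genes of DNA replication and the G1/S transition moved the other way. All 41 were called, 40 of them lower, with a median of -0.92 (-0.67 over the mean of the probes). Mcm2, a subunit of the replicative helicase, stood at 9.36, 9.45 and 9.38 in 24 h myotubes, against 10.88, 11.05 and 10.83 in 50% myoblasts, a log2 change of -1.52 ± 0.16 SE. The flap endonuclease Fen1 fell by 1.49, and Cdc6, which loads the helicase, by 1.65 or 0.98 over the mean of its probes. Even so, 24 h myotubes kept Mcm2 well above the array median, and it was lower again at 48 h (8.78 on average).

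The exception was E2f2, an activator of the E2F family, which rose. It stood at 11.48, 11.36 and 11.56 in 24 h myotubes, against 9.47, 9.67 and 9.71 in 50% myoblasts (3.6-fold, adjusted p 3.29e-07), with 1.72 and 0.19 on its other probes. The level continued upward to 12.14 at 48 h.

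The same promoter windows were searched on both strands for the E2F site TTTNGCGC, in which N is any base. It occurred in 11 of 43 promoters (25.6%) of the replication list and in 1.38% of all promoters, and 34 of the 41 tested genes had a window. The windows of Mcm5 (chr8:75109259-75109558, plus strand) and Mcm7 (chr5:138171834-138172133, minus strand), both helicase subunits, are shown beside that of the opposite-moving E2f2 (chr4:136172024-136172323, plus strand), with the site in capitals and Mcm5 and Mcm7 chosen after their values were seen. Mcm5 fell by 1.44 and Mcm7 fell by 1.34, or 0.73 over the mean of its probes.
Mcm5: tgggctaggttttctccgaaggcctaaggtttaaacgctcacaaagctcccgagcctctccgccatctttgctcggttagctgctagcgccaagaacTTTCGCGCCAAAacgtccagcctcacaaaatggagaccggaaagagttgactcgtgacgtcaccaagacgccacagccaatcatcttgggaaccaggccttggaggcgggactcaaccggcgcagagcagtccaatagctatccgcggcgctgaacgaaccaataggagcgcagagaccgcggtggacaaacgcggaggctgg
Mcm7: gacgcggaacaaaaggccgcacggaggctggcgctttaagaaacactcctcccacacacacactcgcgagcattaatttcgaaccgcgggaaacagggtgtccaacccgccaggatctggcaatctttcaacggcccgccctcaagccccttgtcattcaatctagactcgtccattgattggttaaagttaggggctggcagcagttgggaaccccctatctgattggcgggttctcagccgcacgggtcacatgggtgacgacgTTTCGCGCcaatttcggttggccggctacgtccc
E2f2: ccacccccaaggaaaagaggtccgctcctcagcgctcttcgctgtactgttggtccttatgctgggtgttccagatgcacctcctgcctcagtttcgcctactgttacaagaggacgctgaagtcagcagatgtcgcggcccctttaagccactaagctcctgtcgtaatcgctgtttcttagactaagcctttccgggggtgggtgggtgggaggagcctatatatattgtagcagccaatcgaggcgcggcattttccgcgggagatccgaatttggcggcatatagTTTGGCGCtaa
Mcm5 has overlapping sites that begin 153 and 149 bases before the start, Mcm7 a site 17 bases after it and E2f2 a site 40 bases after it. The site is present in a gene that fell and in a gene that rose. Mcm7 and E2f2 had 2 windows each, of which the one with the most matches is shown.

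Mitotic genes fell in 28 of 32 cases, with a median of -0.60. Separase, Espl1, which frees sister chromatids, stood at 7.86, 7.98 and 7.94 in 24 h myotubes, against 9.43, 9.56 and 9.29 in 50% myoblasts, a log2 change of -1.50. Topoisomerase Top2a fell by 1.33, the kinase Aurka by 1.07 and Foxm1, a factor for mitotic genes, by 1.03. The lone riser, Kif23 (log2 1.80), did not pass over the mean of its probes (0.06). Its probes disagreed, and the others changed by -0.72, -0.85 and -0.01.

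Genes of cell cycle exit moved in both directions. Of 18 tested, 11 rose and 5 fell, with 2 falls without the third 24 h array and 3 without the third 50% array. Across all genes, 25.8% were called higher and 29.9% lower, and the falls lie near that share. Cdkn1c, the imprinted kinase inhibitor p57, stood at 11.79, 11.34 and 11.43 in 24 h myotubes, against 7.36, 7.20 and 7.15 in 50% myoblasts. Its 19.5-fold rise (adjusted p 1.46e-09) was the third largest. Cdkn1a, the inhibitor p21, was abundant in both groups, at 13.96, 13.83 and 13.74 in 24 h myotubes, against 11.87, 11.95 and 11.90 in 50% myoblasts, and rose 3.83-fold. Gadd45a, a stress-induced growth arrest gene, rose by 2.18 and the retinoblastoma gene Rb1 by 1.35. The falls included Rbl1, a relative of Rb1 (log2 -0.58, or -0.26 over the mean of its probes), and the kinase inhibitor Cdkn2d (log2 -0.33), while the inhibitor Cdkn2a did not pass (log2 -0.01).

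Of 7 G1 cyclins and kinases, 6 fell and the remaining rise, of Ccnd2, was lost over the mean of its probes (0.19) and without the first 50% or the third 24 h array. Cyclin D1, Ccnd1, which links mitogens to the cycle and blocks MyoD, stood at 11.25, 11.42 and 11.31 in 24 h myotubes, against 13.31, 13.49 and 13.44 in 50% myoblasts. It was 4.24-fold lower (adjusted p 3.51e-08), and its other probes changed by -2.18 and -2.25. Myc fell by 0.40.

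The list of progenitor genes and inhibitors of myogenesis split, with 7 of 14 higher and 6 lower. Over all genes, 25.8% were called higher and 29.9% lower. The list also holds Tcf12, a partner of MyoD rather than an inhibitor. Tcf12 counts as a riser (log2 0.69) but did not pass over the mean of its probes (0.10). The inhibitors Id1 (log2 -1.20) and Id3 (log2 -0.86) fell. Id1 stood at 10.52, 10.34 and 10.30 in 24 h myotubes, against 11.57, 11.69 and 11.50 in 50% myoblasts, without overlap. Id1 and Id3 differed already between 95% and 50% myoblasts (log2 -1.20 and -0.85, adjusted p 0.000503 and 0.00109) and did not pass between 24 h and 95% (log2 0.01 and -0.01). Twist2, another inhibitor of MyoD, fell by 1.12, but it was higher in 95% than in 50% myoblasts (log2 0.40, adjusted p 0.0427). On the rising side were Hes1, a Notch target (log2 1.12), the repressor Zeb1 (log2 1.05) and Sox8 (log2 0.95, or 0.62 over the mean of its probes).

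No gene of ribosome biogenesis rose and 14 of 19 fell, with a median of -0.69 and 18 falls without the third 95% array or without the whole 95% group. Polr1b, a subunit of the polymerase that makes ribosomal RNA, stood at 8.12, 7.99 and 8.03 in 24 h myotubes, against 9.40, 9.67 and 9.62 in 50% myoblasts, a log2 change of -1.52. The methyltransferase Nop2 fell by 1.07 and nucleolin, Ncl, by 1.06. The cytosolic ribosomal proteins were balanced, with 6 higher and 6 lower of 24 and a median of 0.00. These counts lie near the shares over all genes, 25.8% called higher and 29.9% lower.

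Among 26 serum and growth factor response genes, 11 fell and 7 rose, beside 29.9% of all genes called lower and 25.8% called higher. Etv4, an effector of ERK signalling, fell by 1.61 and the ERK phosphatase Dusp5 by 1.48, while the stress factor Atf3 rose by 1.31. Of 16 genes that SRF controls in smooth muscle and the cytoskeleton, 10 fell and 3 rose, with 1 rise without the second 24 h array. Enteric smooth muscle actin, Actg2, stood at 11.34, 11.17 and 11.39 in 24 h myotubes, against 12.98, 12.98 and 12.85 in 50% myoblasts, 3.11-fold lower. The smooth muscle gene Tagln fell by 1.55, while the myosin kinase gene Mylk rose by 1.27, or 0.66 over the mean of its probes.

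**Figure D3:**
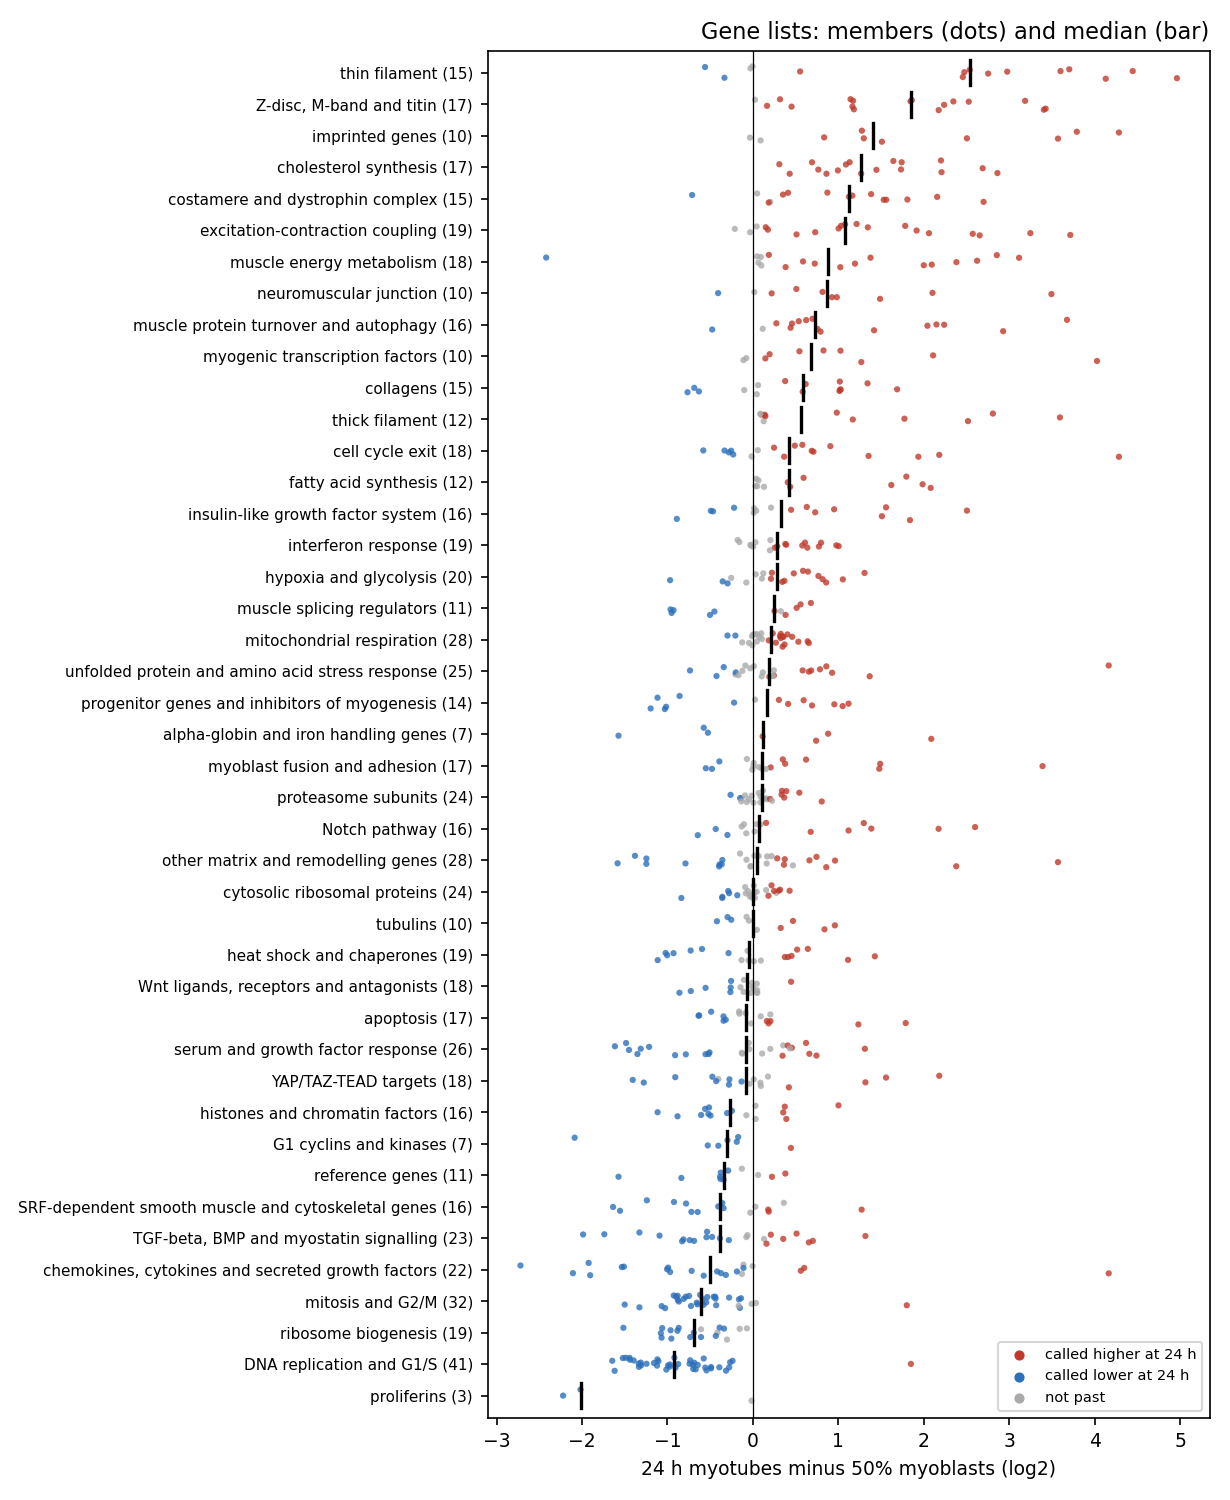
Each row is 1 gene list, with the number of genes tested in brackets. Dots are members, placed by the difference of 24 h myotubes minus 50% myoblasts (log2), red where called higher, blue where called lower and grey where not past the test, and the black bar is the median. Thin filament genes (median 2.54) lie at the top and proliferins (median -2.02) and DNA replication genes (median -0.92) at the bottom, while ribosomal proteins centre on 0.00.

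Cholesterol synthesis rose as a whole pathway. All 17 genes tested were higher in 24 h myotubes, with a median of 1.27, against 25.8% of all genes called higher. Nsdhl, which removes methyl groups from sterol precursors, stood at 11.04, 10.95 and 11.02 in 24 h myotubes, against 8.22, 8.13 and 8.09 in 50% myoblasts. It rose 7.27-fold (adjusted p 4.91e-09), and its other probes by 1.54 to 2.77. Mvd, the last enzyme of the mevalonate stage, rose 4.62-fold and the demethylase Cyp51 4.6-fold. Fdps, which makes farnesyl diphosphate, rose by 2.69, or 1.15 over the mean of its probes, the second of which was dim and changed by -0.39.

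Sterol genes differed already between dense and sparse myoblasts. Nsdhl was higher by 1.84 in 95% than in 50% myoblasts (adjusted p 6.64e-07) and by a further 1.02 at 24 h relative to 95% (adjusted p 2.37e-05). Over the 17 genes the median change was 0.47 for 95% minus 50%, 0.81 for 24 h minus 95% and -0.15 for 48 h minus 24 h. These steps share arrays and are given side by side. The sterol regulatory element TCACNCCAC, searched on both strands, was in none of the 17 promoter windows available, which belong to 14 of the 17 genes tested, and in 1.24% of all promoters, which says only that these letters are not in these windows.

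Fatty acid synthesis rose in 7 of 12 cases with no fall. The desaturase Scd1 stood at 13.34, 13.48 and 13.40 in 24 h myotubes, against 11.44, 11.24 and 11.30 in 50% myoblasts, 4.23-fold higher. The acyl-CoA ligase Acsl3 rose by 1.99, the desaturase Scd2 by 1.80 and Fads2 by 1.62. Among hypoxia and glycolysis genes 12 of 20 rose and 3 fell, with a median of 0.28.

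Notch signalling, through which neighbouring cells hold each other undifferentiated, had 7 of 16 genes higher and 3 lower. The list median was only 0.07, and 25.8% of all genes were called higher and 29.9% lower. The risers included a ligand, a receptor and target genes. The target Hey1 stood at 11.32, 11.08 and 11.19 in 24 h myotubes, against 8.59, 8.69 and 8.51 in 50% myoblasts, 6.06-fold higher (adjusted p 7.14e-09). The related target Heyl rose 4.51-fold, the ligand Dll1 2.61-fold and the receptor Notch3 2.46-fold. Numb, a Notch inhibitor, fell by 0.64 (0.21 over the mean of its probes). The ligand Jag2 also fell (log2 -0.435), and the ligand Jag1 did not pass (log2 -0.08).

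In the insulin-like growth factor system, which drives both growth and differentiation of myoblasts, 8 of 16 genes rose and 4 fell. The shares over all genes were 25.8% higher and 29.9% lower. The ligand Igf2 stood at 12.36, 12.04 and 12.13 in 24 h myotubes, against 9.89, 9.63 and 9.50 in 50% myoblasts, and rose 5.68-fold. Like Acta1, it was lower in 95% than in 50% myoblasts (log2 -1.98, adjusted p 0.000125). The binding protein Igfbp5 rose by 1.84 and Igfbp3 by 1.56. The scavenger receptor Igf2r rose by 1.51, whereas the signalling receptor Igf1r fell by 0.89, or 0.43 over the mean of its probes.

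Secreted factors mostly fell. Of 22 chemokines, cytokines and growth factors, 16 were lower and 3 higher, with a median of -0.50, or -0.97 over probes above a level of 7.5. Csf1, the macrophage growth factor, stood at 8.34, 8.39 and 8.19 in 24 h myotubes, against 11.02, 11.02 and 11.03 in 50% myoblasts. It was 6.59-fold lower (log2 -2.72 ± 0.11 SE, adjusted p 6.16e-09). Fgf7, a growth factor for epithelia, fell by 1.92 and the monocyte attractant Ccl7 by 1.90. Hgf, which activates satellite cells, fell by 2.11, or 0.90 over the mean of its probes.

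The strong exception was Fgf21, a hormone that stressed muscle releases. It stood at 11.47, 11.01 and 11.33 in 24 h myotubes, against 7.17, 7.06 and 7.08 in 50% myoblasts, 17.9-fold higher (adjusted p 2.88e-09). Of 25 genes of the stress pathways that unfolded proteins or missing amino acids set off, 10 rose and 4 fell. Over all genes, 25.8% were called higher and 29.9% lower. The kinase-like Trib3 rose by 1.37 (0.81 over the mean of its probes) and Ddit3, the factor CHOP, by 0.93.

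Of 23 genes of TGF-beta, BMP and myostatin signalling, a family that restrains myogenesis, 13 fell and 7 rose. Only 4 rose without the second 50% array. Across all genes, 29.9% were called lower and 25.8% higher, and the rises lie near that share. Inhba, the activin A subunit, stood at 8.90, 9.10 and 8.99 in 24 h myotubes, against 10.78, 11.10 and 11.08 in 50% myoblasts, 3.96-fold lower. The BMP antagonist Grem1 fell by 1.74 and the SMAD repressor Skil by 1.33. The activin antagonist Fst rose by 0.70 and Tgfb2 by 1.32. Of 18 Wnt genes 6 fell and 1 rose, beside 29.9% of all genes called lower and 25.8% higher, and no change in that list reached 2-fold.

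Proliferins, prolactin-related hormones made by growing cells, fell in 2 of 3 cases. Prl2c2 stood at 11.36, 11.62 and 11.38 in 24 h myotubes, against 13.57, 13.72 and 13.74 in 50% myoblasts, 4.66-fold lower. It was higher in 95% than in 50% myoblasts (log2 0.29, adjusted p 0.046) and fell by a further 3.93 at 48 h. Prl2c3 fell by 2.02. The proliferin genes are near-identical copies, so their probes may share signal.

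Imprinted genes, expressed from the copy of one parent, rose in 8 of 10 cases tested and none fell. The median was 1.40, but 0.14 without the filter on dim probes, since genes below it then entered. Mest, a paternally expressed growth gene, stood at 10.56, 10.72 and 10.47 in 24 h myotubes, against 6.84, 6.73 and 6.80 in 50% myoblasts. It rose 13.8-fold, with 3.44 and 2.55 on its other probes, and fell by 0.67 at 48 h relative to 24 h (adjusted p 0.0137). The list also holds Cdkn1c, Igf2, Dcn and Igf2r, and Grb10, which encodes an adaptor that dampens insulin signalling, did not pass (log2 -0.03).

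Collagens rose in 9 of 15 cases and fell in 3. Col3a1, of stretchable connective tissue, stood at 10.46, 10.86 and 10.73 in 24 h myotubes, against 8.92, 8.85 and 9.22 in 50% myoblasts, 3.22-fold higher. The falls included the basement membrane chains Col4a2 (log2 -0.77) and Col4a1 (log2 -0.69). Other matrix genes split evenly, 9 higher and 9 lower of 28, beside 25.8% of all genes called higher and 29.9% lower. The small proteoglycan Ogn rose by 2.38 and Dcn by 3.57 (1.92 over the mean of its probes), whereas Lox, the enzyme that crosslinks collagen, fell by 1.38 and Fbln2 by 1.58 (0.76 over the mean of its probes).

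Among the largest rises outside the lists, Tgm2, a protein-crosslinking transglutaminase, stood at 12.20, 12.18 and 12.07 in 24 h myotubes, against 8.53, 8.24 and 8.35 in 50% myoblasts. Its change of 3.77 came from 1 probe, and the other, near the floor, changed by 0.02. C1qtnf3, a secreted protein of the adiponectin family, rose 12.6-fold, with 3.62 and 4.10 on its other probes. The hexose transporter gene Slc2a6 rose 9.77-fold.

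Several of the largest falls were no longer seen at 48 h. Erich5 stood at 7.54, 7.58 and 7.60 in 24 h myotubes, against 10.51, 10.68 and 10.61 in 50% myoblasts, 8.17-fold lower (adjusted p 8.25e-08). At 48 h it was back at 10.90, 10.64 and 10.58, within or above the range of the 50% arrays. Rhbdl2, a rhomboid protease, stood at 7.87, 7.85 and 7.74 in 24 h myotubes, against 10.11, 10.24 and 10.30 in 50% myoblasts, and averaged 10.35 at 48 h. These genes were already low in 95% myoblasts, by -2.37 for Erich5 and -1.93 for Rhbdl2 relative to 50%.

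Srr, serine racemase, fell by 2.56 and Ccnt2, a cyclin of transcript elongation, by 2.43, and both were also at or above their 50% level at 48 h (12.75 and 10.61). Their probes disagreed: the other probes of Srr changed by -1.92 and 0.88, and those of Ccnt2 by -0.18, -0.13 and 0.02. The same held for 6030458C11Rik, at -2.19 and with -0.21 and -0.14 on its other probes. The pattern of these 5 genes follows the split in which the 50% and 48 h arrays lie on one side and the 95% and 24 h arrays on the other, and the part of processing in it was not tested.

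**Figure D4:**
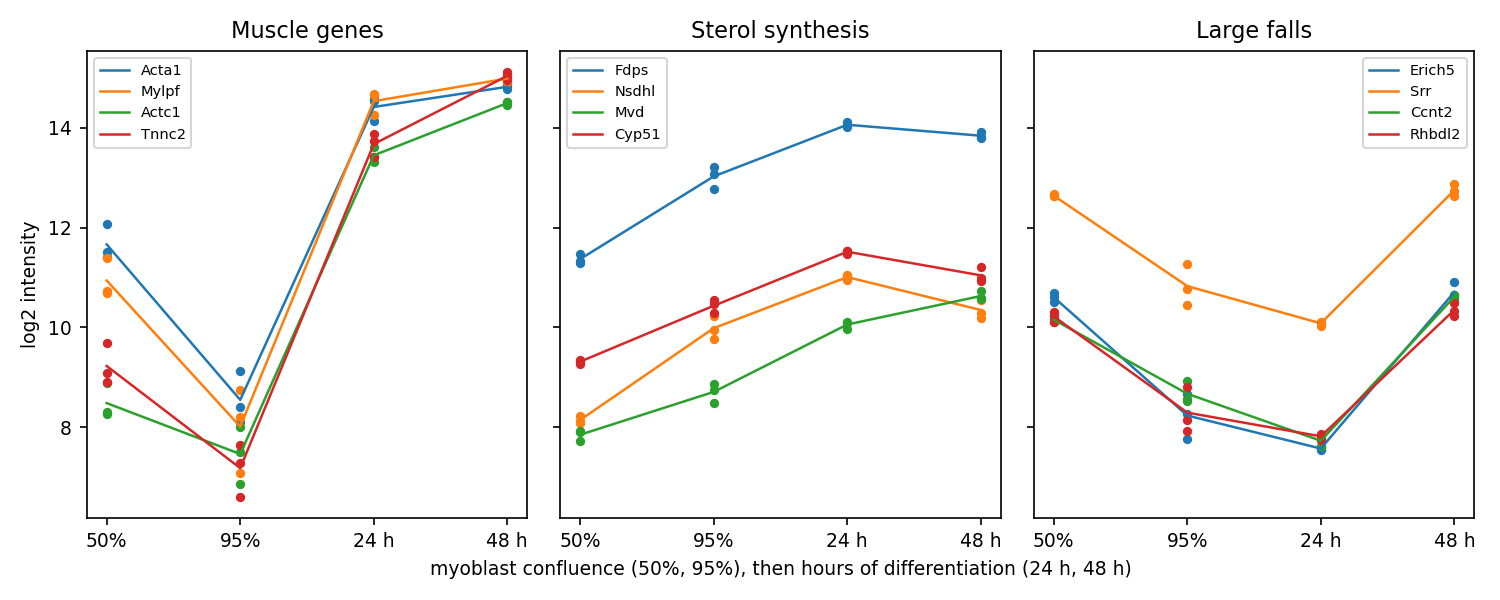
Intensity (log2) of 12 genes on all 12 arrays in the order of the course, 50% and 95% confluent myoblasts, then myotubes at 24 h and 48 h. Points are arrays and lines join the group means. The muscle genes shown dip at 95% before rising at 24 h, and the sterol genes shown climb through 95% and 24 h. Erich5, Srr, Ccnt2 and Rhbdl2 are low at 95% and 24 h and high at 50% and 48 h.

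Another large fall, that of Aqp5, was still seen at 48 h. Aqp5, a water channel, stood at 10.17, 10.33 and 10.08 in 24 h myotubes, against 12.52, 12.29 and 12.32 in 50% myoblasts, and averaged 9.09 at 48 h. In 24 h myotubes relative to 50% myoblasts, the Myc- and E2F-responsive gene Cdca7 was 4.6-fold lower and the protease inhibitor Serpinb2 4.66-fold lower. The unnamed transcript 1700012B09Rik was 4.95-fold lower.

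Along the course, 39.9% of genes were called between 95% and 50% myoblasts, 37.2% between 24 h and 95%, and 44.8% between 48 h and 24 h. For thin filament genes the medians were -0.22, 3.17 and 1.10 over these steps, and for muscle Z-disc genes -0.25, 2.08 and 1.66. For DNA replication the medians were -0.31, -0.58 and -0.71, downward at each step.

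Markers of other cell types were summed in the same way, and their part in the matrix changes was not tested. Summed intensities were 901 to 941 at 24 h, against 824 to 849 at 50%, for osteoblast markers and 1080 to 1124, against 1093 to 1096, for endothelial markers. For macrophage and leukocyte markers they were 1022 to 1042 at 24 h, against 1071 to 1114 at 50%, and for adipocyte markers 1931 to 1997, against 1706 to 1832. Some markers with a probe lay below the array median on every array of both groups. They were 5 of 8 osteoblast, 5 of 10 adipocyte and 1 of 10 endothelial markers. So were 5 of 9 macrophage and leukocyte and 2 of 10 fibroblast markers. A marker outside this count can still lie near the median of 6.684, as the endothelial Tie1 did (6.53, 6.62 and 6.72 at 24 h, against 6.59, 6.57 and 6.70 at 50%). Among the markers outside the count, the osteocalcin gene Bglap2 rose by 0.98, and the adipocyte factor Pparg fell by 0.61 (0.33 over the mean of its probes). The lipase gene Lpl stood at 9.82, 9.77 and 9.72 in 24 h myotubes, against 9.16, 8.97 and 8.88 in 50% myoblasts. Lpl rose by 0.76. That call was lost after centring, without the filter on dim probes and with a trend and robust variance model. It was also lost against a minimum change of 1.2-fold and without any 1 of the 50%, 24 h or 48 h arrays. Fibroblast markers summed to 6444 to 7174 at 24 h, against 5697 to 6552 at 50%. Of 7 tested, 2 were higher and 3 lower, beside 25.8% of all genes called higher and 29.9% lower. Pdgfra fell by 1.14 (0.56 over the mean of its probes) while Dpt rose by 0.81.

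Common reference genes were not level: 7 of 11 fell and 2 rose, with a median of -0.34 (-0.19 over the mean of the probes). The transferrin receptor gene Tfrc, whose product imports iron, stood at 9.99, 10.04 and 10.22 in 24 h myotubes, against 11.57, 11.68 and 11.72 in 50% myoblasts. Rplp0 fell by 0.84 (0.45 over the mean of its probes) and Tbp by 0.38, while Gapdh rose by 0.22.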

How the data were processed

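Total RNA of 12 C2C12 samples was labelled as biotinylated cRNA and hybridised to Illumina arrays, per the labels' protocols. The deposited values are log2 intensities normalized between arrays by the authors; RMA and lumi are named in the submitters' processing notes without role, order or version, and whether the scale is plain log2 or variance-stabilized is not given in the sources used here. Columns differ by at most 0.003 at the same rank. The table before normalization was not used, since its 24 per-sample columns match no label. Detection p-values were therefore not used, and no level is called absent. The arrays carry 45281 probes, of which 34885 map to 1 gene, 18 to several and 10378 to none. Of those with 1 gene, 34807 took their symbol through the gene identifier in RefSeq's table (GRCm38.p6).

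Probes that exceeded the median (6.684) in each of the 3 replicates of at least 1 group were kept, giving 19403 probes, and a gene is its brightest kept probe (4848 genes had others). limma 3.58.1 in R 4.3.3 (lmFit, eBayes) was fitted to all 12 arrays in 4 groups, with Benjamini-Hochberg adjustment over 11883 genes. The number of arrays limits the precision; the median SE was 0.0691. Lists are described by counts and medians without a set test. Named genes were the 12 largest rises and falls, 12 fixed genes and the 3 largest changes outside lists in each direction. The rule also named up to 4 members of each of 48 lists that moved with the list and 2 against it. List members named as not passing, and Tnni1, Myh1, Msc, Mcm5 and Mcm7, fall outside that rule and were chosen after their values were seen. The comparison and lists were chosen with earlier results of these data known. Alternatives covered filters, probe summary, samples, variance model, centring, a replicate block and leaving out arrays.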

Additional observations from a re-analysis of the deposited data

How the results depend on the processing

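The naming rule picked 246 genes, not all of which are described above. Leaving aside the test against a minimum change of 1.2-fold, 231 of these genes kept direction and side of the threshold in every alternative testing them. The stricter filters tested fewer of them: 223 kept both and 3 lost the call over genes above the median on all 12 arrays, and 234 kept both and 3 lost it at a level of 7.5. That test called 3195 genes, 1415 higher and 1780 lower, because it asks for more than a difference from 0. The count of called genes ran from 5939 to 7168 when arrays were left out in turn, and was 7206 with only the 6 arrays compared and 7322 without the 95% group. Centring the arrays gave 2829 higher and 3743 lower. Averaging a gene's probes gave 345 rises and 268 falls of at least 2-fold, and Rps19 reversed to -0.0817 (adjusted p 0.443 in limma). Its brightest probe changed by 0.30 and its other kept probe, a dimmer one, by -0.47. Over genes above the median on all 12 arrays, fewer list members were tested, and thick filament rises were 4 in place of 8, Z-disc rises 8 in place of 16 and muscle energy rises 8 in place of 13. The replicate block called 6648 genes, 6479 of them shared; same-numbered arrays correlated at -0.09 to 0.33 over 18 pairs, 5 of them over 0.1, so the numbers were not taken to pair the samples. Background correction of the table before normalization was not run.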

Other observations

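Splicing regulators split, with 5 of 11 higher and 5 lower, beside 25.8% of all genes called higher and 29.9% lower. Ptbp1, a repressor of muscle exons, stood at 11.95, 12.04 and 11.91 in 24 h myotubes, against 12.81, 12.96 and 12.98 in 50% myoblasts, and fell by 0.95. Mbnl1, which promotes adult splicing patterns, fell by 0.96, or 0.47 over the mean of its probes, whereas the RNA-binding protein genes Qk (log2 0.68) and Rbfox1 (log2 0.56, or 0.35 over the mean of its probes) rose.

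Genes of the interferon response and antigen presentation rose in 11 of 19 cases and none fell, with a median of 0.29. The median was 0.12 without the filter on dim probes and 0.61 at a level of 7.5, where 7 rose. Without the second 24 h array 7 rose, and with only the 6 arrays compared, without the 95% group or without the first 95% array 2 fell. The class I heavy chain H2-K1 rose by 0.98 (0.57 over the mean of its probes) and the guanylate-binding protein gene Gbp2 by 0.80. Among 19 chaperones, 7 rose and 7 fell, beside 25.8% of all genes called higher and 29.9% lower: the small heat shock genes Hspb3 (log2 1.43) and Hspb2 (log2 1.11) rose, and the mitochondrial chaperonin Hspd1 fell by 1.02 (0.68 over the mean of its probes). Of 17 apoptosis genes 5 rose (3 without the second 24 h array, after centring or at a level of 7.5) and 6 fell, beside the same shares of all genes, with the pro-death gene Pmaip1 3.45-fold higher. In the list of alpha-globin and iron handling genes, the iron exporter Slc40a1 rose by 2.09 and alpha-globin Hba-a1 by 0.88; Hba-a1 was highest in 95% myoblasts, at 10.72, 10.54 and 9.94, against 8.24, 8.37 and 8.28 in 24 h myotubes and 7.48, 7.41 and 7.36 in 50% myoblasts.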
